A study of Mus musculus with 11 samples.

Results

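The 10 genes described here carry out the steps by which liver cells build phosphatidylcholine and phosphatidylethanolamine, and they are 10 of the 19207 genes in a count table of mouse liver RNA. They are the choline and ethanolamine kinase genes Chka, Chkb, Etnk1 and Etnk2, the cytidylyl transferase genes Pcyt1a and Pcyt2, the phosphotransferase gene Cept1, the methyltransferase gene Pemt and the lipin genes Lpin1 and Lpin2. They were found by symbol. The list was chosen by the symbols of this pathway with count values of the same 4 groups already known, so its levels and calls are given as a description and are not independent evidence. All 10 genes had enough reads to be tested.

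Phosphatidylcholine is the main phospholipid of cell membranes, of the lipoproteins that the liver secretes and of bile. In the CDP-choline pathway a choline kinase makes phosphocholine, a cytidylyl transferase turns it into CDP-choline, and a phosphotransferase joins the head group to diacylglycerol; ethanolamine follows a parallel branch. Hepatocytes also methylate phosphatidylethanolamine to phosphatidylcholine through the product of Pemt. Lipins supply the diacylglycerol by removing the phosphate of phosphatidate, and they also act with nuclear receptors.

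All mice were of the C57BL/6 strain. The 4 groups were Hmgb2-/- liver after carbon tetrachloride (KO_CCL4, 3 libraries numbered 24, 25 and 15), Hmgb2-/- liver after oil (KO_Oil, 2 libraries, 11 and 12), wild-type liver after carbon tetrachloride (WT_CCL4, 3 libraries, 4, 5 and 6) and wild-type liver after oil (WT_Oil, 3 libraries, 1, 2 and 3). Hmgb2 encodes a chromatin protein with high-mobility group boxes, and carbon tetrachloride (CCl4) is a solvent that hepatocytes turn into a toxic radical. The titles of KO_CCL4 24 and 25 carry the letter E before the number and all other titles the letter S, and the meaning of the letters is not given in the sources used here. Neither are age, sex, dose, number of treatments, feeding, hour of collection, the way the Hmgb2 allele was made, or whether every library came from its own mouse. A p-value here is thus set against the scatter of these libraries alone, and that scatter may be technical.

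Between 7306082 and 14116886 counts fell on the genes of the table in a library, with the lowest totals in both KO_Oil libraries. In counts per 1000000 (CPM), Hmgb2 stood at 0 to 0.951 in the 5 knockout libraries, against 1.93 to 7.42 CPM in the 6 wild-type libraries. On the first principal component of the 500 most variable genes (49.0% of the variance), the KO_CCL4 libraries lay between -0.6 and 12.7, the KO_Oil libraries at -29.0 and -29.3, the WT_CCL4 libraries between 18.8 and 37.5, and the WT_Oil libraries between -19.7 and -13.9. KO_CCL4 15 was the injured knockout library nearest to WT_Oil on both components. Hepatocyte markers, of which 8 of 10 were in the table and none was at 0, summed to 24580 to 33140 CPM in KO_CCL4, 26910 and 29880 CPM in KO_Oil, 29060 to 39040 CPM in WT_CCL4 and 28410 to 37210 CPM in WT_Oil. The 2 highest of them moved in opposite directions from WT_Oil to WT_CCL4. Cyp3a11 averaged 5318 and 11310 CPM, and Cps1 11390 and 7715 CPM with overlapping libraries. By edgeR 1 of the 8 was higher after CCl4 in wild-type liver (adjusted p below 0.05), where 6.98% of all tested genes were.

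The RefSeq windows around the transcription starts of Chka and Chkb, the members that passed the test in at least 1 comparison, are shown with that of Pcyt1a, the member with the narrowest range between libraries. Each holds 250 bases before the start and 50 from it, on the strand of the gene, in build GRCm38.p6. Capitals mark matches to the CCAAT box (CCAAT, or ATTGG on the other strand) in the Chka and Chkb windows and to the sterol regulatory element (TCACNCCAC) in the Pcyt1a window.
Chka, chr19:3851523-3851822, plus strand: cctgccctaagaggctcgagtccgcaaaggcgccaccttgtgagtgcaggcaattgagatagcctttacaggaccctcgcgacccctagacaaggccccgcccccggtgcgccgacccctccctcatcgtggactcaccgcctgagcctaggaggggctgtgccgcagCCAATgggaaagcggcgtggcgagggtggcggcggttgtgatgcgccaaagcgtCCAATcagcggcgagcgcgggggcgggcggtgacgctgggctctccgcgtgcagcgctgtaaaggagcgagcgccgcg
Chkb, chr15:89429878-89430177, minus strand: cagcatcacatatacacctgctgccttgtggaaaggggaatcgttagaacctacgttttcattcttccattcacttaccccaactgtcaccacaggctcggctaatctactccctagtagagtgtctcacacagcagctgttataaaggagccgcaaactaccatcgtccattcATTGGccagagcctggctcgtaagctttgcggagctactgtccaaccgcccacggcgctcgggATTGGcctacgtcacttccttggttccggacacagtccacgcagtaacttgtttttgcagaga
Pcyt1a, chr16:32430671-32430970, plus strand: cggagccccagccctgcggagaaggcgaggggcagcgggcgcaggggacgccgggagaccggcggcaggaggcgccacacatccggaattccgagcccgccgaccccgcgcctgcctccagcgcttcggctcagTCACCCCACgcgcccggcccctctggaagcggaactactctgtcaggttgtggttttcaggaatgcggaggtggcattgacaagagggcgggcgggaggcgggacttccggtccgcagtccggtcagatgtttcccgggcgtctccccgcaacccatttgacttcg

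The Chka and Pcyt1a windows were rich in G and C (68.7% and 69.7%, with 33 CpG dinucleotides each), while the Chkb window held 51.7% G and C and 14 CpG dinucleotides, close to the median of 52.7% over 32851 such windows. The CCAAT matches began 82 and 28 bases before the start of Chka and 76 and 13 bases before that of Chkb, and 37.4% of all windows held one. Windows of the members Cept1, Pemt and Lpin2 held CCAAT matches too. The match in the Pcyt1a window began 116 bases before the start, and 1.24% of all windows held that motif. The other motifs searched, on both strands, were the E-box CACGTG, the cyclic AMP response element TGACGTCA, the D-box TTATGTAA, and a PPAR direct repeat of AGGTCA, any base and AGGTCA. Among the 16 windows of the 9 members with an entry these gave a single match, an E-box 9 bases before a start of Lpin2 (chr17:71183282-71183581), and the E-box was found in 7.15% of all windows, the cyclic AMP response element in 1.79%, the D-box in 0.938% and the direct repeat in 0.0396%. Pcyt2 was the member without an entry.

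Per kilobase of exon, in WT_Oil liver the members ran from Etnk2 (125 ± 46.7 CPM per kilobase, SD, n = 3) through Pemt (91.0 ± 11.1), Pcyt2 (86.6 ± 3.23), Lpin2 (57.5 ± 16.3), Cept1 (28.0 ± 6.62), Lpin1 (21.0 ± 10.7), Pcyt1a (18.7 ± 0.307), Chkb (13.4 ± 2.46) and Etnk1 (8.83 ± 2.29) to Chka (5.12 ± 0.636). In this order the values of Etnk2 and Pemt, Pemt and Pcyt2, Cept1 and Lpin1, and Lpin1 and Pcyt1a overlapped between libraries, and the other neighbours did not. Pemt, Etnk2 and Pcyt2 were the upper 3 members in every one of the 11 libraries. Chka was the lowest member in 9 libraries and eighth in WT_CCL4 4 and 6. The lengths are those the authors gave each gene and include every annotated exon, so a gene with exons that liver does not use is set too low. Lpin1 has its RefSeq start 21196 bases upstream of the gene model in the table.

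**Figure D1:**
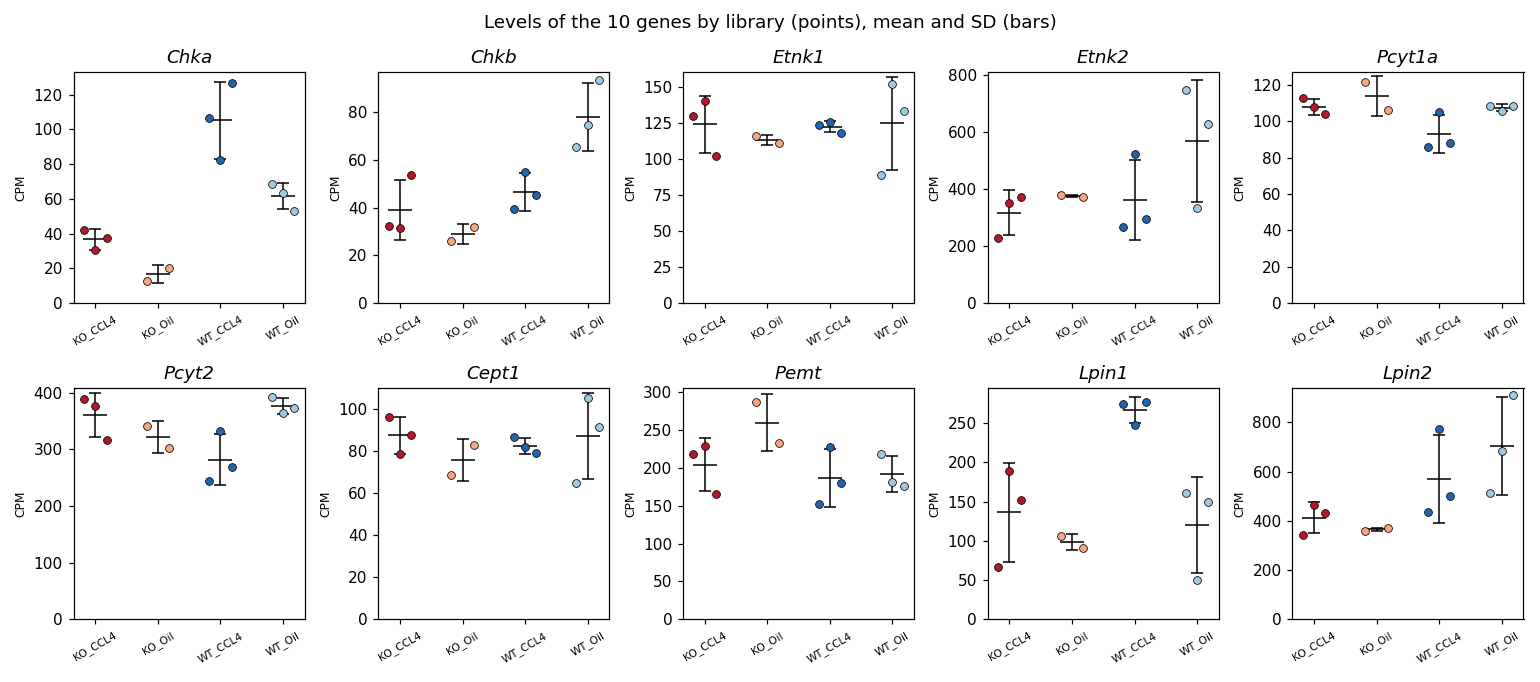
Level of each of the 10 genes in CPM (vertical axes from 0) in the 11 libraries, by group. Points are libraries and bars the group mean and SD; the KO_Oil and KO_CCL4 points of Chka (12.9 to 42.4 CPM) lie below all its wild-type points (53.3 to 127 CPM), while the groups of Etnk1 and Cept1 overlap.

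Chka had the widest range of the 10 members over the 11 libraries and the largest fold change in both comparisons of the genotypes, while for CCl4 against oil in wild-type liver Lpin1 had the larger fold change. It encodes choline kinase alpha, an enzyme of the first step of the CDP-choline pathway (Chka, ENSMUSG00000024843, chromosome 19, bases 3851773 to 3894369, mm10). Its level was 42.4, 30.4 and 37.4 CPM in KO_CCL4 24, 25 and 15, 12.9 and 20.4 CPM in KO_Oil, 107, 82.6 and 127 CPM in WT_CCL4, and 68.3, 63.1 and 53.3 CPM in WT_Oil. The 4 groups did not overlap with each other, and the highest library stood 9.80-fold above the lowest. Behind the KO_Oil values are 90 and 150 counts, and behind the WT_Oil values 547 to 828.

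After oil Chka was 3.69-fold lower in knockout than in wild-type liver (log2 fold change -1.88, SE 0.25, adjusted p = 0.00425). After CCl4 it was 2.87-fold lower in knockout liver (log2 fold change -1.52, SE 0.21, adjusted p = 0.00847). CCl4 against oil gave a log2 fold change of 0.77 in wild-type liver (SE 0.20, adjusted p = 0.0358, 1.71-fold) and 1.14 in knockout liver (SE 0.25, adjusted p = 0.0627, 2.20-fold), of which the first passed the threshold of 0.05 and the second did not. The difference between the 2 responses did not pass (0.37, SE 0.32, adjusted p = 0.67). Chka had log2 ratios of -1.75 for knockout against wild type after oil, -1.46 after CCl4, and 1.03 (adjusted p = 0.019) for CCl4 against oil in knockout liver in the authors' deposited table.

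How much of this rests on single libraries differed between the comparisons. The difference after CCl4 passed whichever single library was left out, but without KO_CCL4 24 and 25 together it was -1.47 with an adjusted p of 0.097. After oil it was -1.59 with an adjusted p of 0.0741 without KO_Oil 11. The rise after CCl4 in wild-type liver did not pass without WT_Oil 2 (adjusted p = 0.0901), WT_Oil 3 (0.142), WT_CCL4 4 (0.109) or WT_CCL4 6 (0.179). A small antisense gene model, Gm16066, overlaps Chka by 648 bases and had 5 to 66 counts.

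Chkb, which encodes choline kinase beta, the other enzyme of that step, was lower in knockout liver after oil. It had 32.2, 31.5 and 53.7 CPM in KO_CCL4 24, 25 and 15, 26.1 and 32.1 CPM in KO_Oil, 39.5, 55.1 and 45.5 CPM in WT_CCL4 and 65.5, 74.6 and 93.5 CPM in WT_Oil. The WT_Oil libraries lay above all others, and KO_CCL4 15 lay within the WT_CCL4 range while the other 2 injured knockout libraries lay below it. After oil the level in knockout liver was 2.68-fold lower than in wild-type liver (log2 fold change -1.42, SE 0.26, adjusted p = 0.0151).

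After CCl4 the 2 genotypes overlapped in Chkb (log2 fold change -0.26, adjusted p = 0.619), with -0.55 (adjusted p = 0.182) without KO_CCL4 15 and 0.23 (adjusted p = 0.713) without KO_CCL4 24 and 25. CCl4 against oil gave -0.74 in wild-type liver (adjusted p = 0.0589) and 0.43 in knockout liver (adjusted p = 0.53). The difference between these responses was 1.16 (SE 0.34, adjusted p = 0.174) and passed only without KO_CCL4 24 and 25, where it was 1.64 (adjusted p = 0.041). In wild-type liver the fall passed without WT_Oil 1 (adjusted p = 0.0485), without WT_CCL4 5 (0.0367), with only the 2 groups fitted (0.0466) and with DESeq2 (-0.75, adjusted p = 0.0326), and the authors' deposited table held -0.72 on the log2 scale (adjusted p = 0.0298). The call after oil was lost without WT_Oil 3 (adjusted p = 0.0691), KO_Oil 11 (0.172) or KO_Oil 12 (0.0721).

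The Chkb row needs care, since its span (ENSMUSG00000022617, chromosome 15, bases 89416405 to 89429908) runs past Chkb itself, which GENCODE ends at base 89426360 on the minus strand. Its length of 5805 bases equals the exons of Chkb together with those of Gm44502, a readthrough model into the neighbouring gene Cpt1b, and 2744 of these bases are exons of Cpt1b too. Cpt1b encodes the muscle form of carnitine palmitoyltransferase 1. Its own counts were 2.97% to 21.2% of the Chkb counts of a library. The share was 13.7% to 21.2% in WT_Oil and 7.69% and 2.97% in KO_Oil, the groups between which Chkb was called. Both CCl4 groups lay between these. With the Cpt1b counts taken off, an alternative added after seeing the data, Chkb stood at 28.7, 28.7 and 47.0 CPM in KO_CCL4, 24.1 and 31.1 CPM in KO_Oil, 34.1, 48.4 and 39.5 CPM in WT_CCL4 and 56.5, 60.8 and 73.7 CPM in WT_Oil. The difference after oil then was -1.20 (SE 0.25, adjusted p = 0.0227). The exons of Cpt1b cover 3372 bases, more than the 2744 shared. Its counts can thus include reads that the Chkb row did not hold, and the Chkb levels after their removal may be too low.

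The balance of the 2 choline kinase messages can be read per kilobase, as a ratio of levels. The ratio of Chka to Chkb was 0.635, 0.466 and 0.336 in KO_CCL4 24, 25 and 15, 0.239 and 0.307 in KO_Oil, 1.30, 0.723 and 1.34 in WT_CCL4, and 0.504, 0.408 and 0.275 in WT_Oil. All WT_CCL4 libraries stood above all others, and KO_Oil and WT_Oil overlapped. The sum of both genes was 9.07, 7.95 and 12.4 CPM per kilobase in KO_CCL4, 5.58 and 7.22 in KO_Oil, 15.7, 16.4 and 18.4 in WT_CCL4 and 17.0, 18.1 and 20.5 in WT_Oil. In this sum the knockout libraries lay below the wild-type libraries with no overlap, and WT_CCL4 and WT_Oil overlapped. These sums and ratios carry the length of the joined Chkb model (5805 bases, where the exons of Chkb itself cover 3061) and were not tested. A shorter Chkb length alone would lower every ratio. Whether a library stands above or below 1 thus depends on the gene model, and nothing is read from it.

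**Figure D2:**
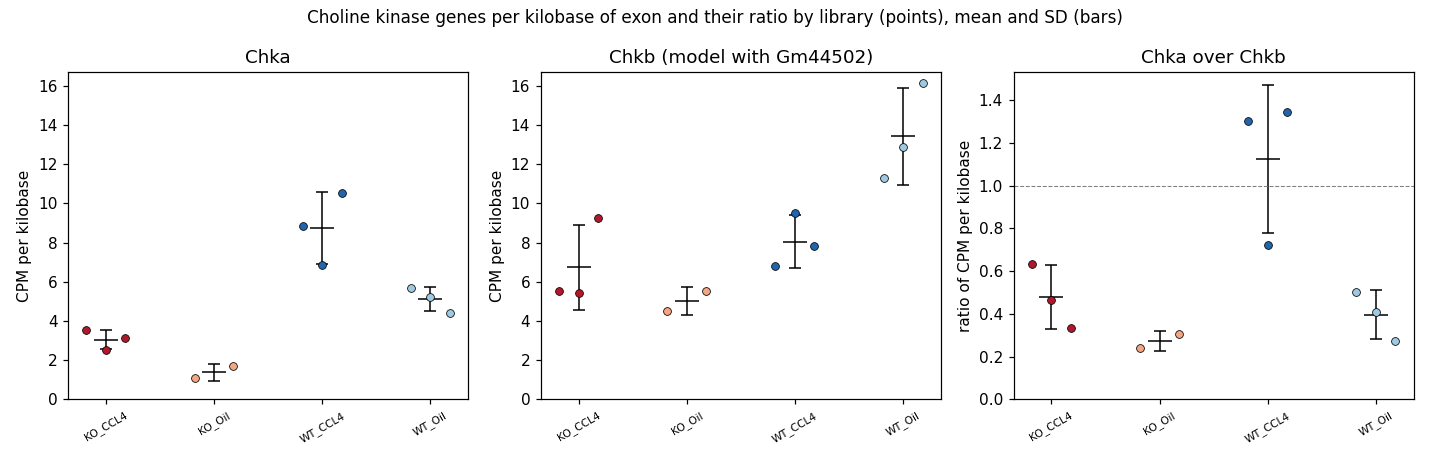
Chka and Chkb in CPM per kilobase of exon (left and middle, same scale) and the ratio of Chka to Chkb (right; the dashed line marks equal levels) in the 11 libraries. Points are libraries, bars the group mean and SD. With the length of the joined Chkb model the ratio is above 1 in WT_CCL4 4 and 6 (1.30 and 1.34). It lies between 0.239 and 0.723 in the other libraries. A shorter Chkb length would lower every ratio, so its place against the dashed line depends on the gene model.

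Etnk1 and Etnk2 encode ethanolamine kinases, which start the ethanolamine branch. Etnk1 (chromosome 6, bases 143167221 to 143232307) had 130, 141 and 102 CPM in KO_CCL4, 116 and 111 CPM in KO_Oil, 124, 126 and 119 CPM in WT_CCL4, and 89.0, 152 and 134 CPM in WT_Oil. Every pair of groups compared overlapped, and its log2 fold changes between groups lay between -0.14 and 0.13 (adjusted p from 0.783 to 0.972). Etnk2 (chromosome 1, bases 133363572 to 133380336) had 227, 352 and 372 CPM in KO_CCL4, 379 and 372 CPM in KO_Oil, 267, 523 and 296 CPM in WT_CCL4, and 747, 333 and 627 CPM in WT_Oil. Wild-type libraries of 1 group differed among themselves, with WT_Oil 2 below and WT_CCL4 5 above their fellows. None of its differences passed, the largest being -0.65 for CCl4 against oil in wild-type liver (SE 0.32, adjusted p = 0.242) and -0.60 for knockout against wild type after oil (SE 0.36, adjusted p = 0.386). Etnk1 overlaps the antisense gene 1700126G02Rik, which had 46 to 144 counts.

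The cytidylyl transferase genes had narrow ranges. Pcyt1a encodes CTP:phosphocholine cytidylyl transferase alpha, the rate-limiting enzyme of the CDP-choline pathway (chromosome 16, bases 32430921 to 32475070). It had 113, 108 and 104 CPM in KO_CCL4, 122 and 106 CPM in KO_Oil, 85.7, 105 and 88.1 CPM in WT_CCL4, and 109, 106 and 109 CPM in WT_Oil. With 1.42-fold between its highest and lowest library it had the narrowest range of the 10 members, and its log2 fold changes ran from -0.21 to 0.22, with adjusted p from 0.374 upward. The WT_CCL4 libraries lay below the WT_Oil libraries, by less than 1 CPM at the nearest pair.

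Pcyt2 encodes the matching enzyme of the ethanolamine branch (chromosome 11, bases 120610087 to 120617936). Its level was 389, 377 and 316 CPM in KO_CCL4, 341 and 302 CPM in KO_Oil, 245, 332 and 269 CPM in WT_CCL4, and 392, 364 and 372 CPM in WT_Oil. All WT_CCL4 libraries lay below all WT_Oil libraries, whereas the knockout groups overlapped each other. The log2 fold change for CCl4 against oil was -0.42 in wild-type liver (SE 0.16, adjusted p = 0.141) and 0.17 in knockout liver (adjusted p = 0.78), and their difference was 0.58 (SE 0.24, adjusted p = 0.318). Without WT_CCL4 5 the wild-type value was -0.55 and passed (adjusted p = 0.0455).

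Cept1 encodes a phosphotransferase of the last step that accepts both CDP-choline and CDP-ethanolamine (chromosome 3, bases 106502260 to 106547802). It had 96.3, 78.7 and 87.6 CPM in KO_CCL4, 68.8 and 82.8 CPM in KO_Oil, 86.6, 81.9 and 78.9 CPM in WT_CCL4, and 64.6, 105 and 91.6 CPM in WT_Oil. The groups overlapped in every comparison, and the log2 fold changes lay between -0.20 and 0.21 (adjusted p from 0.628 to 0.855). Its ends are shared with the opposite-strand genes Dennd2d and Dram2.

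Pemt, whose product methylates phosphatidylethanolamine (chromosome 11, bases 59970614 to 60046489), was highest in KO_Oil. It had 218, 229 and 165 CPM in KO_CCL4, 286 and 233 CPM in KO_Oil, 152, 228 and 180 CPM in WT_CCL4, and 218, 181 and 176 CPM in WT_Oil. Both KO_Oil libraries lay above all others, but no difference passed: after oil the log2 fold change of knockout against wild type was 0.44 (SE 0.21, adjusted p = 0.275), and in knockout liver that of CCl4 against oil was -0.35 (SE 0.21, adjusted p = 0.543). In the oil-treated groups Pemt thus stood on the other side of 0 from Chka and Chkb.

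Lpin1 (chromosome 12, bases 16535669 to 16589770) and Lpin2 (chromosome 17, bases 71182560 to 71249817) encode lipins, the phosphatidate phosphatases of this pathway. Lpin1 had 67.2, 189 and 152 CPM in KO_CCL4, 106 and 91.5 CPM in KO_Oil, 274, 247 and 277 CPM in WT_CCL4 and 161, 49.9 and 150 CPM in WT_Oil. All WT_CCL4 libraries lay above every other library, and within WT_Oil and KO_CCL4 the values spread widely, with WT_Oil 2 and KO_CCL4 24 lowest. The log2 fold change for CCl4 against oil was 1.15 in wild-type liver (SE 0.40, adjusted p = 0.101) and 0.47 in knockout liver (adjusted p = 0.737), and for knockout against wild type after CCl4 it was -0.96 (SE 0.40, adjusted p = 0.246). For the first of these the authors' deposited table held a ratio of 1.04 on the log2 scale (adjusted p = 0.0447), and it also passed with DESeq2 (1.13, adjusted p = 0.0459).

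Lpin2 had 345, 465 and 430 CPM in KO_CCL4, 360 and 371 CPM in KO_Oil, 435, 771 and 502 CPM in WT_CCL4, and 514, 684 and 910 CPM in WT_Oil. Both KO_Oil libraries lay below all WT_Oil libraries, and the log2 fold change there was -0.94 (SE 0.29, adjusted p = 0.0842), a difference that passed with DESeq2 (-0.95, adjusted p = 0.019). After CCl4 the genotypes overlapped (log2 fold change -0.46, SE 0.25, adjusted p = 0.386), and without WT_CCL4 5 the value was -0.18. A same-strand gene model inside Lpin2, Gm26561, had 3 to 23 counts.

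**Figure D3:**
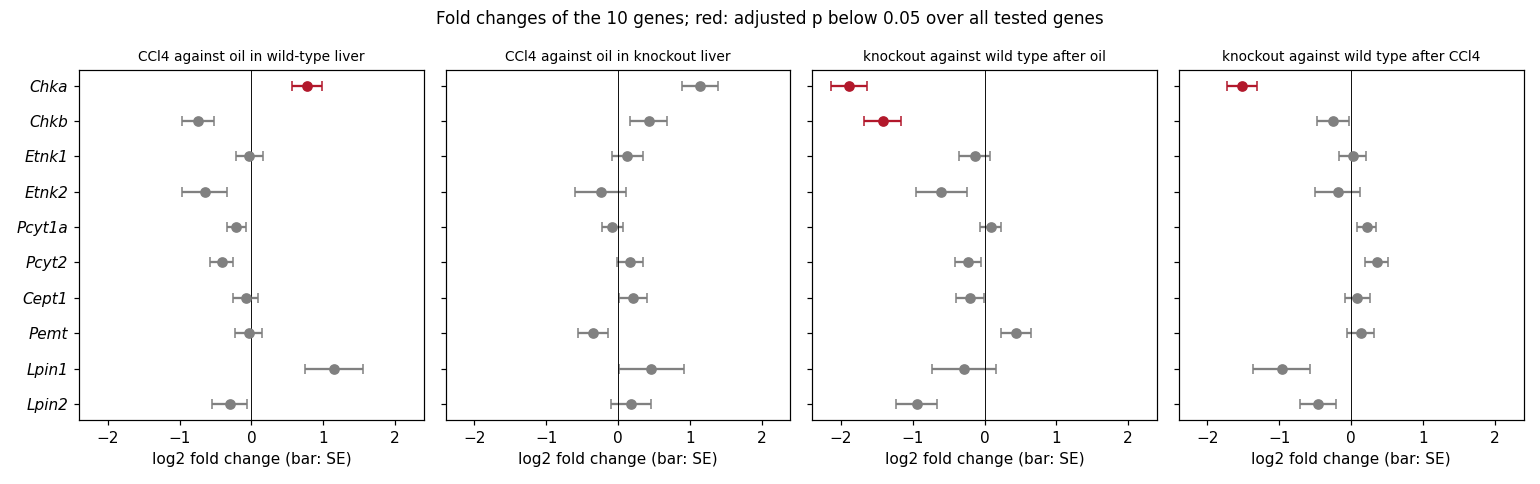
Log2 fold changes of the 10 genes (horizontal axes, points with SE bars) in 4 comparisons; positive values mean higher after CCl4 or in the knockout. Red points have an adjusted p below 0.05 over all tested genes: Chka in 3 panels (0.77, -1.88 and -1.52) and Chkb after oil (-1.42).

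The members' calls stand beside those over all 16866 tested genes. In wild-type liver after CCl4 1 of 10 members was called, Chka, higher, where 8.48% of all tested genes were called in either direction and 6.98% higher. In knockout liver after CCl4 none of the 10 was called by edgeR and 1 had an unadjusted p below 0.05, where 0.652% of all genes were called (110, with 2199 at an unadjusted p below 0.05); DESeq2 called 1, Chka (log2 fold change 1.13, adjusted p = 0.00345). Knockout against wild type gave 2 of 10 members lower after oil (Chka and Chkb), where 4.11% of all genes were called and 1.92% lower, and 1 of 10 lower after CCl4 (Chka), where 1.2% were called and 0.889% lower. For the difference between the responses to CCl4 none of the 10 was called by edgeR or DESeq2, 2 had an unadjusted p below 0.05, and 0.101% of all genes were called. Because the members were chosen with these contrasts known, nothing is read from these shares.

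The median log2 fold change of the 10 members was -0.14 for CCl4 against oil in wild-type liver, against -0.02 over all tested genes, and 0.17 in knockout liver, against 0.02. For knockout against wild type it was -0.26 after oil, against 0.01, and -0.08 after CCl4, against -0.002. The members thus spread on both sides of 0 in each comparison. The 4 comparisons share libraries, so the members' values in them are not independent of each other.

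Other gene lists had called genes too, mainly for knockout against wild type after oil, where both Chka and Chkb were called. Of 18 clock genes, 11 were called higher and 2 lower in knockout against wild-type liver after oil, where 4.11% of all tested genes were called, and their summed level was 748 to 1115 CPM in KO_CCL4, 1235 and 1287 CPM in KO_Oil, 635 to 685 CPM in WT_CCL4 and 549 to 667 CPM in WT_Oil. Of 16 fasting and PPARA target genes, 10 were called lower after oil, where 1.92% of all tested genes were, and the sum was 10380 to 28470 CPM in KO_CCL4, with the highest value in KO_CCL4 15, 7776 and 10320 CPM in KO_Oil, 16070 to 28090 CPM in WT_CCL4 and 28620 to 33780 CPM in WT_Oil. Of 9 glucocorticoid target genes in the table, 3 were called lower after oil and 1 after CCl4, where 0.889% of all tested genes were called lower, and the sum was 1740 to 2745 CPM in KO_CCL4, 1699 and 1572 CPM in KO_Oil, 2386 to 5001 CPM in WT_CCL4 and 2351 to 5548 CPM in WT_Oil. The KO_Oil libraries stood at one end in all 3 lists, as they did for Chka. One clock gene was at 0 in each KO_Oil library, and no gene of the other 2 lists was at 0. For knockout against wild type after CCl4, where Chka was also called, no clock gene and no fasting or PPARA target was called. Of all tested genes 1.2% were called there. For CCl4 against oil in wild-type liver 2 of the 18 clock genes were called higher, where 6.98% of all tested genes were. No fasting, PPARA or glucocorticoid target was called in that comparison. The part of these lists in the results for Chka and Chkb was not tested.

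**Figure D4:**
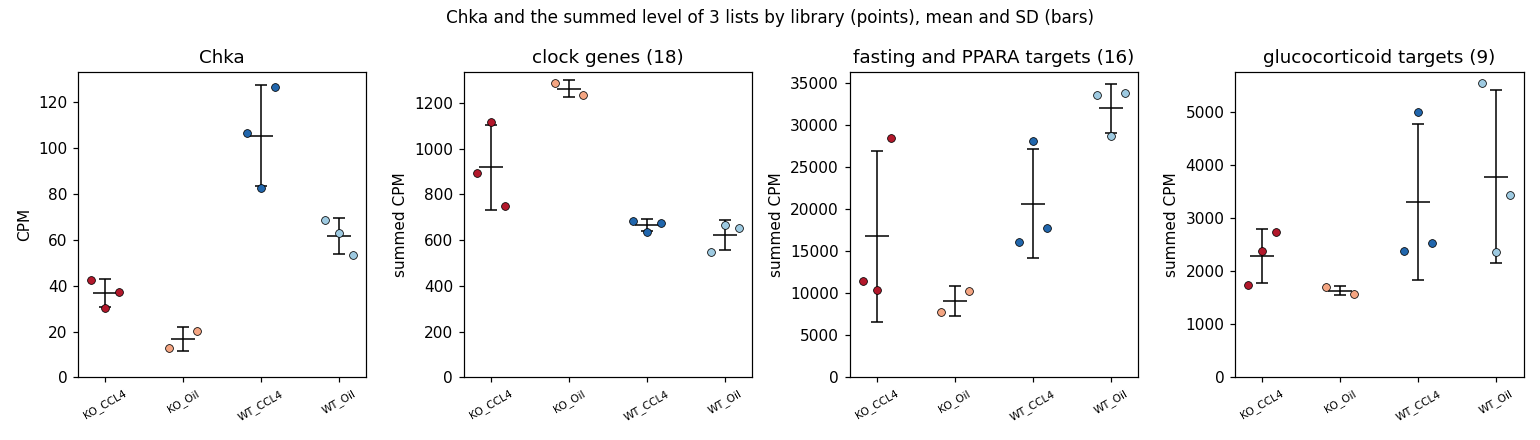
Level of Chka (CPM) and summed CPM of the clock (18 genes), fasting and PPARA target (16) and glucocorticoid target (9) lists in the 11 libraries, vertical axes from 0; points are libraries, bars the group mean and SD. The KO_Oil points are lowest for Chka (12.9 and 20.4 CPM) and for both target lists, and highest for the clock list (1287 and 1235 CPM).

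Marker genes of some cell types other than hepatocytes also differed between the groups, while no endothelial marker was called in any comparison. The 8 infiltrating macrophage markers summed to 91.6 to 123 CPM in KO_CCL4 and to 54.8 and 66.2 CPM in KO_Oil. Their sum was 157 to 517 CPM in WT_CCL4 and 28.4 to 49.8 CPM in WT_Oil. All 8 were called higher after CCl4 in wild-type liver, where 6.98% of all tested genes were. After CCl4 3 were called lower in knockout than in wild-type liver, where 0.889% of all tested genes were. Stellate cell and fibroblast markers summed to 703 to 984 CPM in KO_CCL4, 479 and 526 CPM in KO_Oil, 1014 to 2746 CPM in WT_CCL4 and 424 to 505 CPM in WT_Oil, with 7 of 9 called higher after CCl4 in wild-type liver. No gene of either list was at 0 in any library. Dividing cell markers summed to 8.35 to 26.2 CPM in KO_CCL4, 6.80 and 15.4 CPM in KO_Oil, 35.9 to 147 CPM in WT_CCL4 and 7.04 to 8.77 CPM in WT_Oil; all 6 were called higher after CCl4 in wild-type liver and 4 lower in knockout than in wild-type liver after CCl4, and 1 was at 0 in KO_Oil 12. Lymphocyte markers, with none at 0, summed to 7.45 to 11.1 CPM in KO_CCL4, 9.62 and 10.6 CPM in KO_Oil, 8.99 to 10.3 CPM in WT_CCL4 and 2.83 to 4.66 CPM in WT_Oil. Of these 6 markers, all at low levels, 1 was called higher after CCl4 in wild-type liver. In knockout against wild-type liver after oil 2 were called higher, where 370 of 16866 tested genes were. Among the Kupffer cell, bile duct, and adipose and mesothelium markers 1 of each list was called higher after CCl4 in wild-type liver, and these lists had no other calls. WT_CCL4 5, the lowest WT_CCL4 library for the macrophage and stellate cell lists, was also the lowest WT_CCL4 library for Chka and Lpin1. For Chkb, Etnk1, Etnk2, Pcyt1a, Pcyt2, Pemt and Lpin2 it was the highest WT_CCL4 library, and for Cept1 the middle one. In whole liver RNA, fewer cells of a type and less RNA per cell cannot be told apart, and the part of these cells in the members' values was not tested.

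The genes with the pattern over the 11 libraries most like Chka, by the root mean square difference of centred log2 CPM among 9990 candidates, were Spon2 (0.339), Zbtb16 (0.344) and Epha2 (0.370), where the median candidate stood at 0.997. Zbtb16, which is on the list of glucocorticoid targets, had 23.8 ± 5.26 CPM in KO_CCL4, 14.1 ± 4.09 CPM in KO_Oil, 81.8 ± 6.62 CPM in WT_CCL4 and 56.7 ± 12.3 CPM in WT_Oil (SD, n = 3, 2, 3 and 3). For Chkb, with the Cpt1b counts left in, they were Dpy19l1 (0.156), Pctp (0.164) and Rtfdc1 (0.176), where the median candidate stood at 0.616. Pctp, which encodes the phosphatidylcholine transfer protein and is on the list of phosphatidylcholine breakdown and transfer, had 103 ± 24.2 CPM in KO_CCL4, 72.2 ± 23.3 CPM in KO_Oil, 138 ± 10.8 CPM in WT_CCL4 and 191 ± 23.4 CPM in WT_Oil (SD, n as before).

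Around the members, 8 lists of 88 genes cover choline uptake, the remaining steps of both branches, glycerolipid acylation, lipin regulators, other phospholipids, remodelling, methyl supply and phosphatidylcholine breakdown; 85 were in the table and 81 were tested. Knockout against wild type after oil gave 1 gene higher and 8 lower of 81, where 4.11% of all tested genes were called, and the median log2 fold change of the lists was -0.15, against 0.01 over all tested genes. CCl4 against oil in wild-type liver gave 5 higher and 3 lower of 81, close to the 8.48% called among all tested genes, with a median of -0.17 against -0.02. By edgeR none of the 81 was called for CCl4 against oil in knockout liver (16 at an unadjusted p below 0.05), for knockout against wild type after CCl4 (12) or for the difference between the responses (20). DESeq2 called 4 (all higher, among them Agpat2, Agpat9 and Selenoi), 2 (Chpt1 higher, Gdpd1 lower) and 5 (all above 0, among them Abcb4, Agpat2, Phospho1 and Selenoi) in these, and 15 after oil and 9 for CCl4 in wild-type liver.

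After oil, in the branches themselves, 2 of 5 tested genes were lower, where 1.92% of all tested genes were. Selenoi, which encodes an ethanolaminephosphotransferase, averaged 56.4 ± 2.65 CPM in KO_Oil and 106 ± 21.3 CPM in WT_Oil (log2 fold change -0.91, adjusted p = 0.0204). Phospho1, which encodes a phosphatase of phosphocholine and phosphoethanolamine, averaged 6.22 ± 0.142 CPM in KO_Oil and 23.1 ± 7.06 CPM in WT_Oil (-1.90, adjusted p = 0.0247). Values after ± are SDs, with n = 2 and 3. Of 17 tested genes of breakdown and transfer 3 were lower, namely Pctp (-1.40, adjusted p = 0.0112), Pnpla7, which encodes a lysophospholipase (-0.91, adjusted p = 0.0387), and Abcb4. Abcb4 encodes the transporter that moves phosphatidylcholine into bile, and it averaged 271 ± 54.7 CPM in KO_Oil and 913 ± 150 CPM in WT_Oil (-1.75, adjusted p = 0.0117).

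Among 17 tested acyltransferase and phosphatase genes after oil, Dgat2, of the last step of triacylglycerol synthesis, was higher (551 ± 3.80 CPM in KO_Oil and 311 ± 58.9 CPM in WT_Oil; 0.83, adjusted p = 0.0329), and the acyltransferase genes Agpat3 (-0.92, adjusted p = 0.0408) and Agpat9, the older symbol of Gpat3 (-1.88, adjusted p = 0.0457), were lower. Of the 27 tested genes of uptake, lipin regulation, other phospholipids and remodelling, edgeR called none after oil, 5 had an unadjusted p below 0.05, and DESeq2 called 1, Pisd, lower.

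None of the 8 calls named here after oil passed for every single library left out. All 8 were lost without KO_Oil 11 (adjusted p from 0.151 to 0.286) and without WT_Oil 3 (0.0515 to 0.139), and all of them but Pctp without KO_Oil 12 (0.0579 to 0.262). Without WT_Oil 2, Agpat3, Agpat9, Dgat2 and Phospho1 were lost (0.0563 to 0.0977), and without WT_Oil 1, Agpat3 and Pnpla7 (0.0725 and 0.0767). Agpat9 was also lost with a minimum mean of 5 CPM (0.0521).

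In wild-type liver after CCl4, 2 of 6 tested uptake genes were higher, where 6.98% of all tested genes were. Slc44a2 and Slc44a3 encode choline transporter-like proteins. Slc44a2 averaged 23.0 ± 5.33 CPM in WT_CCL4 and 11.9 ± 1.43 CPM in WT_Oil (log2 fold change 0.95, adjusted p = 0.009), and Slc44a3 14.2 ± 3.45 CPM in WT_CCL4 and 5.97 ± 1.55 CPM in WT_Oil (1.24, adjusted p = 0.0213; SD, n = 3 each). Chpt1, which encodes the cholinephosphotransferase of the last step of the CDP-choline pathway, averaged 128 ± 42.7 CPM in WT_CCL4 and 306 ± 81.3 CPM in WT_Oil (-1.26, adjusted p = 0.0496). Gpcpd1, which encodes an enzyme that splits glycerophosphocholine, averaged 64.0 ± 33.5 CPM in WT_CCL4 and 204 ± 92.0 CPM in WT_Oil (-1.67, adjusted p = 0.0283).

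The other calls in wild-type liver after CCl4 were Agpat4, an acyltransferase gene (1.37, adjusted p = 0.014), Gdpd1, a lysophospholipase D gene (1.30, adjusted p = 0.0263), Lpcat2, which encodes an acyltransferase of lysophosphatidylcholine (0.91, adjusted p = 0.0487), and Dmgdh, which encodes dimethylglycine dehydrogenase (-0.63, adjusted p = 0.0491). None of these 8 calls passed for every single library left out. Without WT_CCL4 6 all 8 were lost (adjusted p from 0.0554 to 0.212) and without WT_CCL4 4 all but Slc44a2 (0.0514 to 0.202). Without WT_Oil 3, Chpt1, Dmgdh, Gdpd1, Gpcpd1, Lpcat2 and Slc44a3 were lost (0.0959 to 0.166), without WT_Oil 2 Agpat4, Chpt1, Dmgdh, Gdpd1 and Lpcat2 (0.0609 to 0.148), and without WT_Oil 1 Dmgdh and Lpcat2 (0.0977 and 0.1). Dmgdh was also lost with RLE scaling (0.0507), no filter (0.0501), a minimum mean of 5 CPM (0.0683) and only the compared groups (0.063). Chpt1 was also lost with a minimum mean of 5 CPM (0.0847) and Lpcat2 with no filter (0.0542). Agpat4 and Gdpd1 fell below a minimum mean of 5 CPM and were not tested in that setting.

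**Figure D5:**
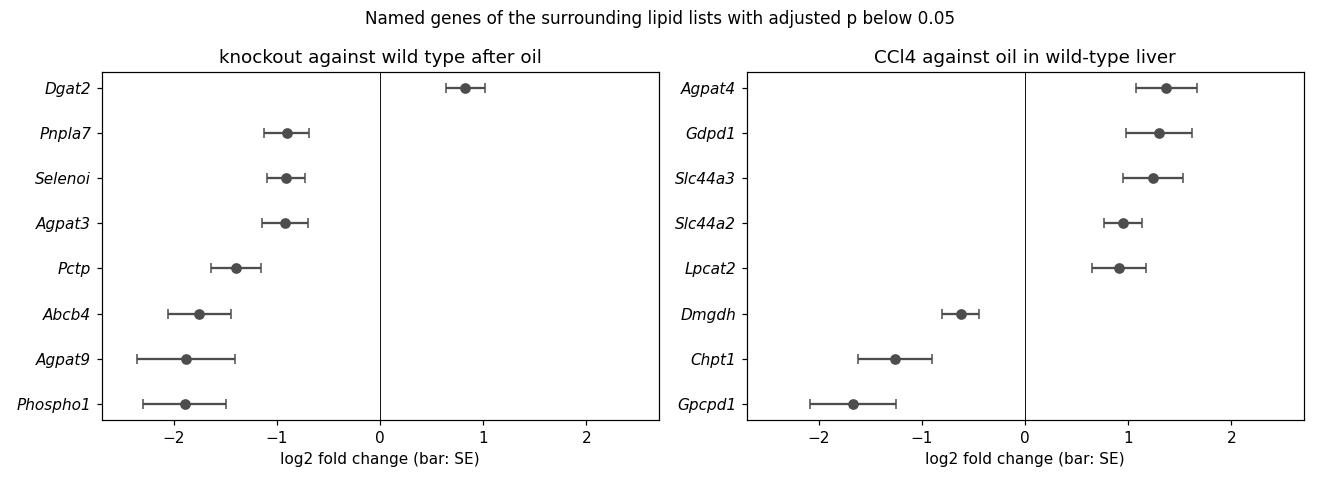
Log2 fold changes with SE bars (horizontal axes) of the genes named here from the surrounding lipid lists with an adjusted p below 0.05 over all tested genes. Left, knockout against wild type after oil, where Dgat2 (0.83) is the one gene above 0; right, CCl4 against oil in wild-type liver, from Agpat4 (1.37) to Gpcpd1 (-1.67).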

How the data were processed

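Per the labels' protocols, frozen livers went through a stranded total RNA kit; the design mentions capped RNA instead, and this is unsettled. Bowtie, DESeq2 and the builds mm10 and GRCm38 are named per the submitters' processing notes. Per the column descriptions the authors deposited raw counts per gene made with USeq, so that reads in overlapping genes can count for each of them; use of strand is not stated. The authors' FPKM values were used for a check of scaling, and their deposited log2 ratios and DESeq2 scores (a transformed adjusted p) were copied with the sign of the ratios turned to CCl4 over oil and knockout over wild type.

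The members and lists were chosen with earlier results of these data known. All members were named, up to 4 called genes per pathway list and comparison, and 3 likeness genes per called member. Counts were fitted with edgeR 4.0.16 (R 4.3.3; TMM scaling, filterByExpr with minimum count 10 and total 15, quasi-likelihood test, 11 libraries, 4 group means). This left 16866 genes and removed 2341. Adjusted p is Benjamini-Hochberg over all tested genes, called below 0.05, and SE is the absolute log2 fold change over the square root of F. CPM is per 1000000 TMM-scaled counts; likeness used a prior count of 2. The fit was also run on simulated counts with the same spread for every gene, which these data need not have. That run checks the code and is no evidence on the results here. Alternatives were RLE scaling, no filter, a mean of at least 5 CPM, DESeq2 1.42.0, a fit of only the compared groups, omission of each library or of both E-lettered libraries and, added after seeing the data, Chkb counts less Cpt1b counts. One gene of the pathway lists enters their counts and is not reported here. No libraries were found to be duplicates.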

Additional observations from a re-analysis of the deposited data

How the results depend on the processing

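Of 605 values of the 10 members under the alternatives, 569 kept their side of the threshold and moved little, 9 called values no longer passed, 9 newly passed, 18 uncalled values moved by more than the allowed spread and 0 called values reversed. Of the members, DESeq2 called 3 for CCl4 against oil in wild-type liver and 1 in knockout liver. For knockout against wild type after oil Lpin2 newly passed with DESeq2 (adjusted p = 0.019). Fitting only the groups compared called 2 for CCl4 against oil in wild-type liver. With both E-lettered libraries left out, 0 members were called for knockout against wild type after CCl4 and 1 for the interaction. Leaving out each library in turn gave 0 to 3 members in wild-type liver after CCl4, 0 to 2 for knockout against wild type after oil, 1 throughout after CCl4, and 0 throughout for CCl4 in knockout liver and for the interaction.

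Over all genes, DESeq2 called 388 for CCl4 against oil in knockout liver (110 by edgeR), 1275 for knockout against wild type after oil (694), 685 after CCl4 (202) and 364 for the interaction (17). A mean of at least 5 CPM left 766 calls for CCl4 in wild-type liver (1431 otherwise) and 110 for knockout against wild type after CCl4. Only the groups compared gave 48 for CCl4 in knockout liver and 31 for knockout against wild type after CCl4. Without both E-lettered libraries knockout against wild type after CCl4 had 42 and the interaction 257. Leaving out each library gave 469 to 2245 for CCl4 in wild-type liver, 11 to 374 in knockout liver, 18 to 480 for knockout against wild type after oil, 14 to 625 after CCl4 and 0 to 285 for the interaction; the causes were not tested. No paired analysis was possible because the groups share no replicate number. Where 1 library remained in a group, it was assumed to vary like the others. With 90 and 150 counts in KO_Oil, Chka there is the member level with the fewest reads.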
